A study of Homo sapiens with 2 samples.

Results

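The nuclear pore complex is the gated channel of the nuclear envelope through which mRNA, proteins and ribosomal subunits pass. It is built from a small number of different proteins, the nucleoporins, each present in many copies and arranged in rings. The Y complex forms the outer rings, the inner ring lines the waist of the pore, FG nucleoporins fill the central channel, and further proteins make up the cytoplasmic face, the nuclear basket and the membrane ring that anchors the pore. Transcripts of 30 genes for these proteins were examined, chosen by name, and their PacBio loci were found as those whose exons overlapped the gene most on the same strand in GENCODE 44. Edit sites were listed for 29 of the 30, of 11960 genes listed in all. TPR, the main filament of the nuclear basket, had 51 isoform models but no listed site in either library, and its read depth was not analysed here.

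The data came from RBFOX2-INSCRIBE, in which APOBEC1, an enzyme that deaminates cytosine in RNA, is joined to an anti-rabbit nanobody and brought to an RNA-binding protein in fixed cells by an antibody, so that cytosines of nearby RNA are read as uracil. RBFOX2 is a splicing regulator that binds UGCAUG. There were 2 libraries of full-length cDNA from the same immortalized line, named HEK293T in the sample titles and HEK293XT in the cell line field, both without any genetic change named in the labels. The RBFOX2 library received the rabbit anti-RBFOX2 antibody and the fusion, and the enzyme-only library received the fusion with no antibody, so that it holds background editing. With 1 library per group, every comparison below is between these 2 libraries, has no replicate check and carries no p-value. Intervals are exact 95% intervals and cover counting error only, since reads are not known to be independent molecules. The labels give kidney as the tissue. Of 5 genes typical of the HEK293 line, NEFL and NEFM were listed in both libraries and GAP43 in neither. VIM was listed only in the RBFOX2 library, and PAX2 only in the enzyme-only library, with 1 site in 3 reads. None of 5 genes of mature kidney was listed, but a gene is listed only if it holds a site.

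A site is a distinct edited position. Positions listed in both libraries were set aside as shared, which left 109357 RBFOX2 sites and 91111 enzyme-only sites over all genes, a ratio of 1.20. The nucleoporin transcripts were of modest depth, with 72 to 381 reads per gene when the antibody was present and 51 to 363 when it was not. Reads were more numerous in the RBFOX2 library for 25 of the 29 genes, by a median factor of 1.13. The tables list a position only where converted reads exceed 0.002 of the gene's reads. At these depths 1 converted read is enough, so the listing minimum was the same for every nucleoporin in both libraries.

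The UGCAUG elements at which the RBFOX2 library carried most of its nearby nucleoporin sites are shown first, because the description of SEH1L, NUP205 and NUP155 turns on them. They are all exonic UGCAUG copies of these genes with 2 or more RBFOX2 sites within 50 nt. Each line gives the RNA strand 5′ to 3′ from the hg38 reference, with the hexamer in capitals together with every other cytosine that was an unshared site of the RBFOX2 library.
NUP205 coding sequence, chr7:135645516-135645543, plus strand: aCuuguuacauUGCAUGcccaCggauuC
SEH1L 3′UTR, chr18:12986089-12986116, plus strand: uacuaaaauugUGCAUGuaaauuaauug
NUP155 coding sequence, chr5:37298923-37298950, minus strand: cuCggauagaaUGCAUGcuCuuagucuc
NUP93 coding sequence, chr16:56830562-56830589, plus strand: uaauuuacuaCUGCAUGcgcuguggaga
RANBP2 3′UTR, chr2:108784059-108784086, plus strand: auaauugaccuUGCAUGgugugaaauaa
SEH1L 3′UTR, chr18:12985283-12985310, plus strand: uugcugcuuguUGCAUGcacacaggaau
NUP35 3′UTR, chr2:183161362-183161389, plus strand: uucuguaaCagUGCAUGcuucagcacag

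Over all nucleoporin genes the RBFOX2 library held 570 unshared sites and the enzyme-only library 405. The RBFOX2 library thus supplied 58.5% of the sites (interval 55.3 to 61.6%), against 54.6% over all genes. That background includes deep genes, which can need more converted reads in the deeper library, so it compares unlike thresholds. Closer in depth were the 7233 genes listed in both libraries with at most 500 reads. They held 95729 RBFOX2 and 77065 enzyme-only sites, or 91.9 and 81.7 per 1000 gene reads. Per 1000 gene reads the nucleoporins had 94.7 and 75.6 sites. The nucleoporin excess was uneven. NUP93, NUP205 and SEH1L together held 159 RBFOX2 sites and 39 enzyme-only sites, and without these 3 genes the RBFOX2 share was 52.9% (49.3 to 56.5%). The plot of sites per gene shows how far these genes stood from the rest.

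**Figure D1:**
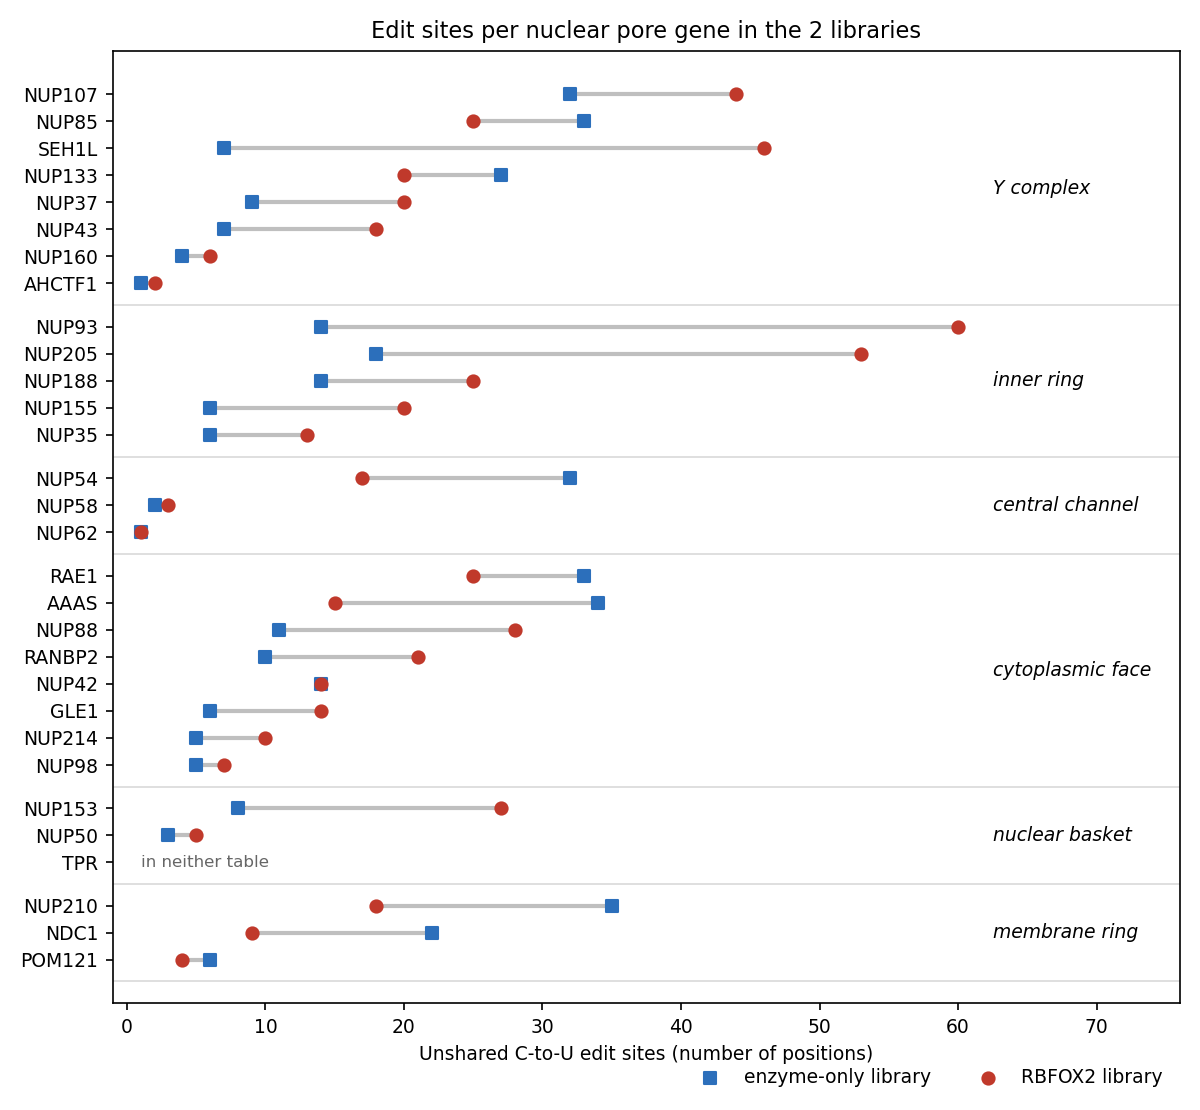
Number of unshared C-to-U sites (x axis, positions) of each nucleoporin gene in the RBFOX2 library (red circles) and the enzyme-only library (blue squares), grouped by place in the pore; the grey bar joins the 2 libraries. SEH1L (46 against 7), NUP93 (60 against 14) and NUP205 (53 against 18) have the widest gaps, and NUP54, AAAS, NUP210 and NDC1 have more sites in the enzyme-only library.

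To compare genes, the log2 ratio of RBFOX2 over enzyme-only sites was scaled by the library totals of sites, with a pseudocount of 0.5, and a gene with at least 20 sites was called when it differed more than 2-fold. Of the 20 nucleoporin genes with enough sites, 7 were called higher in the RBFOX2 library and 4 lower. Over all 3616 genes with enough sites, 16.8% were called higher and 14.6% lower. The median log2 ratio of the 20 genes was 0.66, against 0.08 over all genes. For the 7 nucleoporin genes with at least 50 sites it was 0.19, against 0.07 over 1022 such genes. The genes called in either direction are described below by their place in the pore, and the plot of ratios shows all 20.

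**Figure D2:**
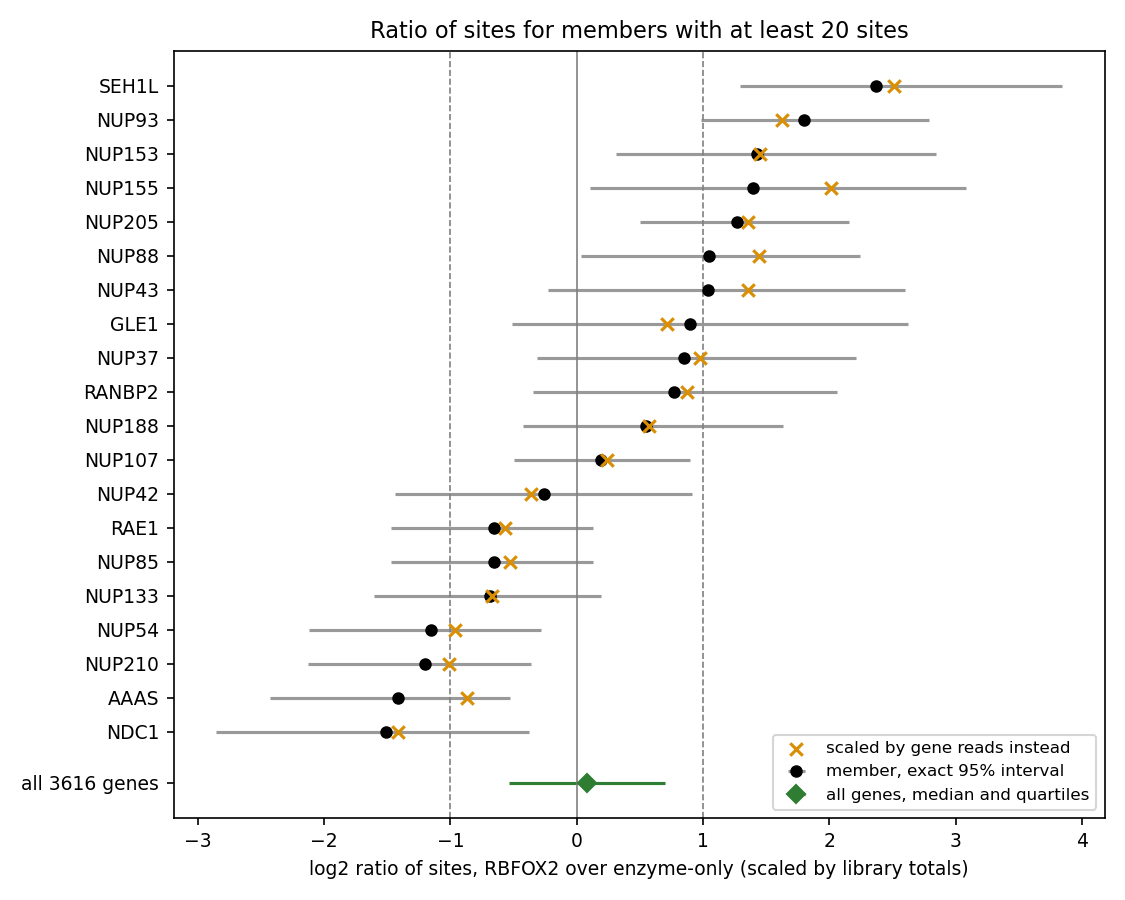
Log2 ratio of sites, RBFOX2 over enzyme-only, scaled by library totals (x axis) for the 20 nucleoporin genes with at least 20 sites (black, exact 95% intervals); orange crosses are scaled by the reads of the gene instead, the green diamond and bar are the median and quartiles of all 3616 genes, and dashed lines mark a 2-fold difference. SEH1L is highest at 2.37 and NDC1 lowest at -1.51, and intervals of neighbouring genes overlap widely.

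The inner ring, the scaffold around the waist of the pore, had the largest excess of the 6 places in the pore, with 171 RBFOX2 sites against 58 enzyme-only sites, a log2 ratio of 1.29 (0.86 to 1.75). The nuclear basket was close, with 32 against 11 sites and a log2 ratio of 1.24 (0.25 to 2.41). All 5 inner ring genes had more sites in the RBFOX2 library, where reads of these 5 genes together were 1.16 times as many. NUP93, the linker that holds the inner ring together, had 60 sites in 306 reads of the RBFOX2 library and 14 sites in 226 reads of the enzyme-only library, a log2 ratio of 1.80 (0.98 to 2.79). NUP205, one of the large scaffold proteins that bind NUP93, had 53 sites in 239 reads against 18 in 211, a log2 ratio of 1.27 (0.50 to 2.15). NUP155, which bridges the inner ring to its neighbours, had 20 sites in 96 reads against 6 in 123, so that more sites were listed from fewer reads. Its log2 ratio was 1.39 (0.11 to 3.08), and 2.01 when scaled by the reads of the gene. NUP188, the paralogue of NUP205, had 25 sites in 160 reads against 14 in 135 and a log2 ratio of 0.55, within 2-fold, with an interval of -0.43 to 1.63. NUP35, a membrane-contacting protein of this ring, had 13 against 6 sites, too few to be called.

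In the Y complex, which coats the membrane on both faces of the pore, the sums were 181 RBFOX2 sites and 120 enzyme-only sites, a log2 ratio of 0.33 (-0.01 to 0.67), and its genes went different ways. SEH1L, which the Y complex shares with the SEA complex of amino acid signalling, had 46 sites in 139 reads against 7 in 128. Its log2 ratio of 2.37 (1.30 to 3.85) was above those of 98.1% of all genes with enough sites and was the highest of the nucleoporins. NUP43 had 18 sites in 104 reads against 7 in 108, a log2 ratio of 1.04 with an interval of -0.23 to 2.60 that includes 0. It was within 2-fold with a pseudocount of 1 (0.98) and with a common read minimum (0.96). That minimum holds both libraries to the converted reads needed at the greater depth. It removed no nucleoporin site and changed only the library totals used for scaling. The NUP43 locus overlaps exons of LATS1 on the same strand, and 5 of the 18 RBFOX2 sites and 1 of the 7 enzyme-only sites lay in those exons.

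The other Y complex genes were within 2-fold or had few sites. NUP107, part of the stem of the Y, had many sites in both libraries, 44 in 327 reads and 32 in 282 reads, a log2 ratio of 0.19 (-0.49 to 0.90). NUP37, a propeller protein, had 20 sites in 162 reads against 9 in 148, a log2 ratio of 0.85 (-0.31 to 2.21). NUP85 and NUP133 had more sites in the enzyme-only library. NUP85 had 25 in 206 reads against 33 in 188, a log2 ratio of -0.66 (-1.47 to 0.13). NUP133 had 20 in 315 reads against 27 in 266, a log2 ratio of -0.69 (-1.61 to 0.19). NUP160 had 6 against 4 sites, and AHCTF1, which seeds pores on chromatin, had 2 against 1.

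In the nuclear basket, NUP153, which anchors the basket and binds import receptors, was called higher with 27 sites in 240 reads against 8 in 203, a log2 ratio of 1.43 (0.31 to 2.84). NUP50, its partner in import, had 5 against 3 sites. On the cytoplasmic face, where mRNA export is completed, the sums were 134 and 118 sites. NUP88, which holds NUP214 at the pore, had 28 sites in 181 reads against 11 in 199, a log2 ratio of 1.05 (0.03 to 2.24), and 0.96, within 2-fold, with a common read minimum. AAAS, also known as ALADIN, went the other way with 15 sites in 183 reads against 34 in 223. Its log2 ratio was -1.42 (-2.43 to -0.53), and -0.87 when scaled by the reads of the gene, which is within 2-fold.

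The remaining genes of the cytoplasmic face were not called. RANBP2, a giant FG nucleoporin, had 21 sites in 362 reads against 10 in 323, a log2 ratio of 0.77 (-0.34 to 2.06), and near-identical copies of the RGPD genes make its count uncertain. GLE1 and NUP42 act together on the export helicase. GLE1 had 14 sites in 98 reads against 6 in 72, a log2 ratio of 0.89 (-0.51 to 2.63). NUP42 had 14 sites in 242 reads against 14 in 188, a log2 ratio of -0.26 (-1.44 to 0.91). RAE1, an mRNA export factor, had 25 sites in 350 reads against 33 in 310, a log2 ratio of -0.66 (-1.47 to 0.13). NUP214 and NUP98, further FG proteins, had 10 against 5 and 7 against 5 sites.

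In the central channel and the membrane ring the enzyme-only library led. NUP54, an FG nucleoporin of the channel, had 17 sites in 154 reads against 32 in 147, a log2 ratio of -1.16 (-2.12 to -0.28), and -0.96 when scaled by gene reads. Its channel partners NUP58 and NUP62 had 3 against 2 sites and 1 against 1 site. NDC1, a transmembrane protein needed for pore insertion, had 9 sites in 231 reads against 22 in 205, a log2 ratio of -1.51 (-2.86 to -0.38). NUP210, the large membrane glycoprotein, had 18 sites in 381 reads against 35 in 363, a log2 ratio of -1.20 (-2.13 to -0.36). POM121 had 4 against 6 sites, with its near-identical copy POM121C making the count uncertain. All 3 membrane proteins thus had fewer sites in the RBFOX2 library, 31 against 63 in sum, although their reads together were 1.13 times as many there.

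Sites of the RBFOX2 library lay nearer to UGCAUG than cytosines of the same genes in general. The motif was searched on the strand of the gene, and its expected share of sites is the share of exonic cytosines within 50 nt of a copy, weighted by the sites of each gene. Of 570 exonic RBFOX2 sites, 32 were within 50 nt, which is 5.61% (3.87 to 7.83%) against 3.28% expected, a ratio of 1.71 (1.18 to 2.39). In the enzyme-only library 9 of 404 sites were as near, 2.23% (1.02 to 4.19%) against 2.88% expected, a ratio of 0.774 (0.356 to 1.46). Over all genes the ratios were 1.53 and 0.951, with 2.59% and 2.44% expected. For GCAUG, the shorter pentamer that every UGCAUG contains, the nucleoporin ratios were 1.19 (0.927 to 1.49) and 0.895 (0.615 to 1.25).

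The nearness to the motif came from few genes. Without SEH1L, which had most such sites, the RBFOX2 ratio was 1.53 (0.980 to 2.28). Without SEH1L and NUP205 it was 1.16 (0.654 to 1.89), and without NUP155 as well it was 0.847 (0.408 to 1.54). These genes were left out because of their values, so the last ratios describe what remained. By place in the pore, the inner ring had 18 of 171 RBFOX2 sites near the motif, a ratio of 2.46 (1.49 to 3.77), and 3 of 58 enzyme-only sites, a ratio of 1.19 (0.247 to 3.30). For RBFOX2 sites the ratio was 1.82 (0.883 to 3.27) in the Y complex and 0.888 (0.244 to 2.22) on the cytoplasmic face, and no RBFOX2 site of the central channel, the nuclear basket or the membrane ring was near the motif.

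In the RBFOX2 library, positions with several converted reads were near the motif more often than those with 1. Of 56 RBFOX2 sites with 2 or more converted reads, 8 were within 50 nt of UGCAUG, 14.3% (6.38 to 26.2%) against 3.83% expected. Most of these 8 were in NUP205 and NUP155. Of 514 sites with 1 converted read, 24 were, 4.67% (3.01 to 6.87%) against 3.22% expected, so the intervals overlap. In the enzyme-only library none of the 21 sites with 2 or more converted reads was near the motif, with an upper interval bound of 16.1%.

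**Figure D3:**
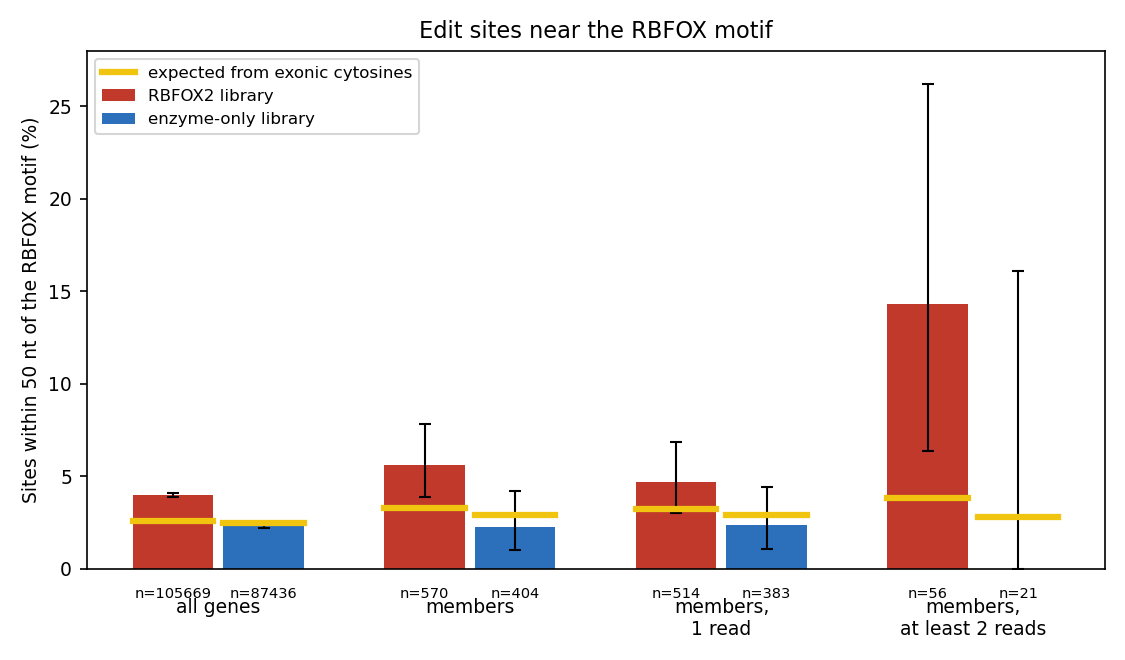
Share of exonic sites within 50 nt of UGCAUG (y axis, %) in the RBFOX2 (red) and enzyme-only (blue) libraries, for all genes, for the nucleoporin genes, and for nucleoporin sites with 1 or with at least 2 converted reads; black bars are exact 95% intervals and yellow lines the share of exonic cytosines. Among nucleoporin sites the RBFOX2 share is 5.61% and rises to 14.3% with at least 2 reads, while the enzyme-only shares are at or below the yellow lines.

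The 29 listed genes held 32 exonic copies of UGCAUG in 17 genes, and TPR, without a site, held 1 more. An RBFOX2 site lay within 50 nt of 11 copies in 8 genes, an enzyme-only site near 5 copies, and 18 copies had no site of either library. The 7 copies printed above had 28 RBFOX2 sites and 1 enzyme-only site between them. They were picked by their RBFOX2 sites, so this contrast is a description. High counts also occurred in genes without the motif, since NUP153, NUP43 and NUP107 had no exonic UGCAUG.

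The copy in NUP205 lies 481 nt of exon before the 3′ end, in coding sequence, and had the most RBFOX2 sites and converted reads of any UGCAUG here. Among 26 exonic cytosines within 50 nt, 8 were RBFOX2 sites with 15 converted reads and none was an unshared enzyme-only site. They lay on both sides of the hexamer, from 47 nt upstream to 38 nt downstream, and 1 was the cytosine of the hexamer itself. The pair with most converted reads of any unshared nucleoporin site of the RBFOX2 library, 4 of 239 reads each or 1.67% (0.458 to 4.23%), were here, 13 nt upstream and 5 nt downstream. A further 2 positions of this stretch were shared. With these included it held 10 sites and 21 converted reads in the RBFOX2 library, and 2 sites and 2 converted reads in the enzyme-only library.

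A second stretch of NUP205 was densely edited without the motif. In the 100 nt of exon around chr7:135648438-135648527, in coding sequence near the 3′ end, 10 of 18 exonic cytosines were RBFOX2 sites and none an unshared enzyme-only site. No RBFOX2 site there was near UGCAUG, and together they held 16 converted reads. Another 4 positions there were shared, carrying 4 RBFOX2 and 8 enzyme-only converted reads, so the totals were 20 and 8 converted reads. The strongest sites of this stretch and of NUP93, and the pair of strongest sites of the enzyme-only library, are shown to compare the bases around them. In these lines the site and, where it falls inside, the motif are in capitals, on the RNA strand of hg38.
NUP205, 13 nt upstream of UGCAUG, 4 converted reads, chr7:135645500-135645528: cgccaucuggaguaCuacuuguuacauUG
NUP205, last stretch, 3 converted reads, chr7:135648488-135648516: ucucgauauaguuuCauacaggcucuugu
NUP205, last stretch, 3 converted reads, chr7:135648507-135648535: aggcucuugucagaCguauccguggccuc
NUP93, 3 converted reads, chr16:56839019-56839047: aucaccuuuuuugaCgaguaucauagugg
NUP153, enzyme-only library, 4 converted reads, chr6:17615042-17615070: gggauaaaugccauCaauaaaaaauuaug
NUP85, enzyme-only library, 3 converted reads, chr17:75235104-75235132: uuuucucagcagaaCagacuuaugaguug
In all 6 the edited cytosine follows an A or a U.

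An A or U directly before the site was general. APOBEC1 prefers such cytosines. Among exonic nucleoporin sites it held for 81.1% of RBFOX2 sites (77.6 to 84.2%) and 74.0% of enzyme-only sites (69.4 to 78.2%), while 50.9% and 49.5% of exonic cytosines have it. Over all genes the shares were 71.7% and 63.8%. The 45 shared positions, in 20 genes, had an A or U before them in 91.1% of cases. They carried 55 RBFOX2 and 54 enzyme-only converted reads, and at 7 of them the RBFOX2 library had more and at 7 fewer. NUP205 and RAE1 held 8 and 7 of these positions.

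SEH1L carried its RBFOX2 sites mainly in the long form of its 3′UTR. Its 16 isoform models end at chr18:12985714 (8 models) or within 100 nt of chr18:12987534 (7 models), with 1 other. Downstream of the shorter end lay 28 RBFOX2 sites and no unshared enzyme-only site among 290 exonic cytosines, a share of 9.66% (6.51 to 13.7%) against 0% (0 to 1.26%). In the rest of the gene 18 RBFOX2 and 7 enzyme-only sites lay among 475 cytosines, 3.79% and 1.47%. With the 1 shared position the long part held 29 sites and 30 converted reads against 1 site and 1 read. This split was chosen after the values were seen. Reads are given per gene, so how many reads of each library reached the long part is not known, and more long transcripts and more editing of each cannot be told apart.

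The SEH1L motif copy with most sites was in this long part, 1434 nt from its end, with 6 RBFOX2 sites from 42 nt upstream to 49 nt downstream and none from the enzyme-only library. Every one of the 6 had 1 converted read. The copy in the short 3′UTR had 2 RBFOX2 sites and 3 converted reads. A last copy, 362 nt from the end, had 1 RBFOX2 site.

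In NUP155 the motif copy with nearby sites is in coding sequence, with 5 RBFOX2 sites and 7 converted reads among 20 exonic cytosines and 1 enzyme-only site with 1 read. The remaining 3 UGCAUG copies of this gene had no site. NUP93 had 3 RBFOX2 sites near its copy, and most of its sites were elsewhere: a 100-nt stretch of coding exons 226 nt from the 3′ end held 10 RBFOX2 sites and 1 enzyme-only site among 36 cytosines, none near the motif. The maps of these 4 genes show both patterns.

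**Figure D4:**
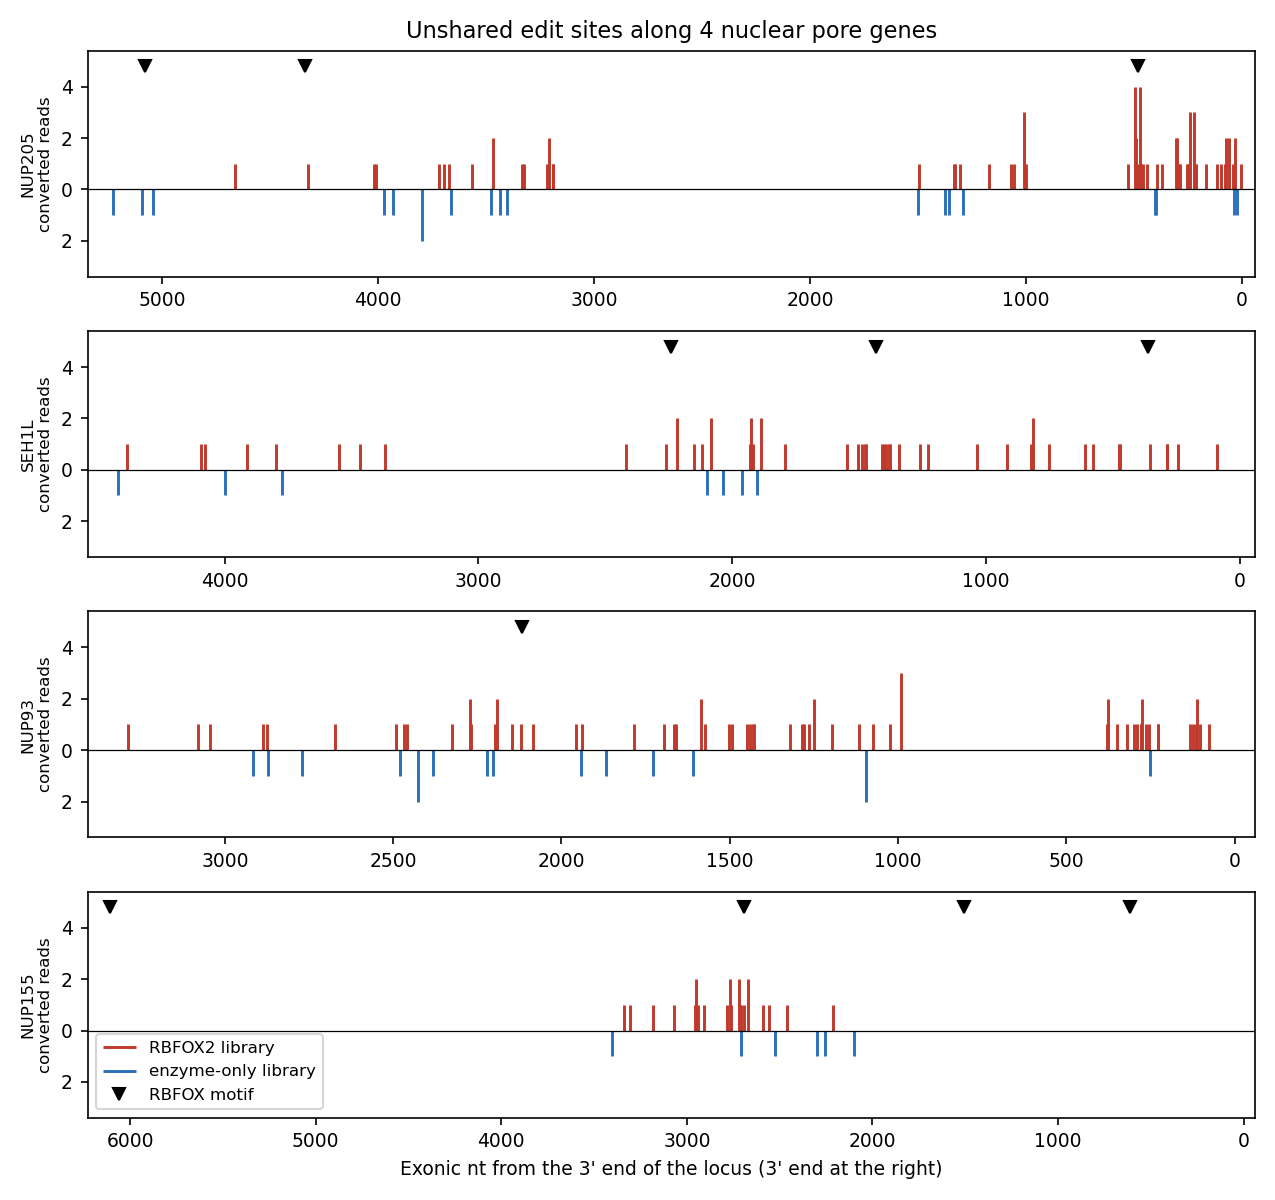
Unshared sites along NUP205, SEH1L, NUP93 and NUP155: the x axis is exonic distance from the 3′ end of the locus in nt, the y axis converted reads, with RBFOX2 sites drawn upward in red and enzyme-only sites downward in blue, and black triangles marking exonic UGCAUG. NUP205 has dense RBFOX2 sites at the motif 481 nt from its end and again nearer the end, and the last part of SEH1L has no unshared enzyme-only site.

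Dense stretches of nucleoporin sites were more frequent in the RBFOX2 library. Of 32 loci with an RBFOX2 site, 17 had a 100-nt exonic window with 4 or more RBFOX2 sites, and 7 had one with 4 or more enzyme-only sites. Such windows were not counted over all genes, and the RBFOX2 library held more nucleoporin sites in all, 570 against 405. After NUP205, NUP93, NUP155 and SEH1L came NUP107, NUP153 and NUP188 with 6 RBFOX2 sites in a window against 1 enzyme-only site each. NUP85, NUP88 and RANBP2 reached 5, and the enzyme-only counts there were 3, 0 and 0. AAAS, GLE1, NUP133, NUP35, NUP37, NUP54 and RAE1 reached 4. These windows were picked by their RBFOX2 sites, so a low enzyme-only count inside them is a description. The richest window of the enzyme-only library, picked by its own sites, held 3, 2 and 3 sites in NUP107, NUP153 and NUP188. Among loci with at least 2 RBFOX2 sites in a window, it held more sites than the richest RBFOX2 window in RAE1 (7 against 4), AAAS and NUP54 (5 against 4 in both), NUP210 and NUP42 (4 against 3 in both) and NDC1 (3 against 2). It held as many in NUP85 (5), NUP133 (4) and the second listed locus of NUP210 (2).

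Sites of both libraries lay towards the 3′ end. In the last 500 nt of exon the RBFOX2 library had 123 sites, 1.89 times the number expected from cytosines (1.60 to 2.20), and the enzyme-only library 63, 1.30 times (1.02 to 1.63). More than 2000 nt from the end the ratios were 0.652 and 0.738. The expected numbers count every exonic cytosine alike. Reads are given per gene, so more reads near the 3′ end and more editing there cannot be told apart. By annotation, 31.4% of RBFOX2 sites (27.6 to 35.4%) and 27.7% of enzyme-only sites (23.4 to 32.3%) lay in 3′UTRs, where 17.1% and 19.4% were expected, and 64.2% and 68.1% lay in coding sequence. Over all genes 40.2% and 34.1% lay in 3′UTRs, where 28.3% and 27.5% were expected. With 3′UTR counted before coding sequence the nucleoporin shares in 3′UTRs were 61.6% and 61.7%, so their size depends on the order of annotation. With coding sequence first, NUP153, SEH1L and NDC1 had 20 of 27, 35 of 46 and 7 of 9 RBFOX2 sites in the 3′UTR, whereas NUP93 had 58 of 60 in coding sequence.

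Read support was thin. Of the RBFOX2 sites 9.82% (7.51 to 12.6%) had 2 or more converted reads, and of the enzyme-only sites 5.19% (3.24 to 7.82%). Over all genes, where deep genes can need 2 or more reads to be listed, the shares were 14.3% and 9.45%. Only 6 RBFOX2 sites and 2 enzyme-only sites of the nucleoporins reached 3 reads, and the highest number was 4 in either library. NUP205 alone held 13 of the 56 RBFOX2 sites with 2 or more reads.

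In the MANE Select coding sequences, 360 RBFOX2 sites would leave 137 codons synonymous, 193 changed and 30 as stop codons. The share of stops was 8.33% (5.69 to 11.7%), where 8.99% of the same genes' coding cytosines would give one. In the enzyme-only library 18 of 276 were stops, 6.52% (3.91 to 10.1%) against 8.46%. The site with most reads among them was the NUP85 site printed above, at codon 596 of 655, with 3 converted reads in the enzyme-only library. NUP93 had 5 such RBFOX2 sites and NUP205 had 4. Both intervals include the expected share.

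Finally, sites were related to isoforms by editsC, the percentage of an isoform's exonic cytosines that are unshared sites. Reads are given per gene only, so isoforms that share an exon share its sites and are not independent. Of 566 isoform models of listed nucleoporins, 504 held a site. Over these the median editsC was 4.28% with the antibody and 2.56% without it, and 296 isoforms were higher with it, 180 lower and 28 equal. Isoforms of other genes were not counted this way, and over all genes the RBFOX2 library held 1.20 times as many sites. Counted once per gene over merged exons, the median was 1.70% and 0.954% for the 29 genes, against 0.808% and 0.657% over 9898 listed genes with a model.

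The isoforms of a gene mostly went the same way. All 28 isoforms of NUP205 with a site, all 22 of NUP93 and all 16 of SEH1L were higher in the RBFOX2 library, and all 29 of AAAS, all 23 of NUP54 and all 17 of RAE1 were lower. NUP205 had the widest range of RBFOX2 values, from 5.82% to 26.9%, beside enzyme-only values from 1.58% to 3.85%. Enzyme-only values ranged most widely in NUP85, from 0 to 14.8%. The NUP205 models with a site share their 3′ end and differ in where they begin. The longest of them, of 31 exons, had 53 RBFOX2 sites among 911 cytosines, and the shortest, of 3 exons, kept 28 of them among 104. In SEH1L the 8-exon model with the long 3′UTR had 44 RBFOX2 and 7 enzyme-only sites among 603 cytosines, 7.30% and 1.16%. Of the 8-exon models with the short 3′UTR, the shorter had 16 and 7 among 310, 5.16% and 2.26%, and the longer had 17 and 7 among 450, 3.78% and 1.56%. The plot of editsC by isoform shows each gene as a separate trail.

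**Figure D5:**
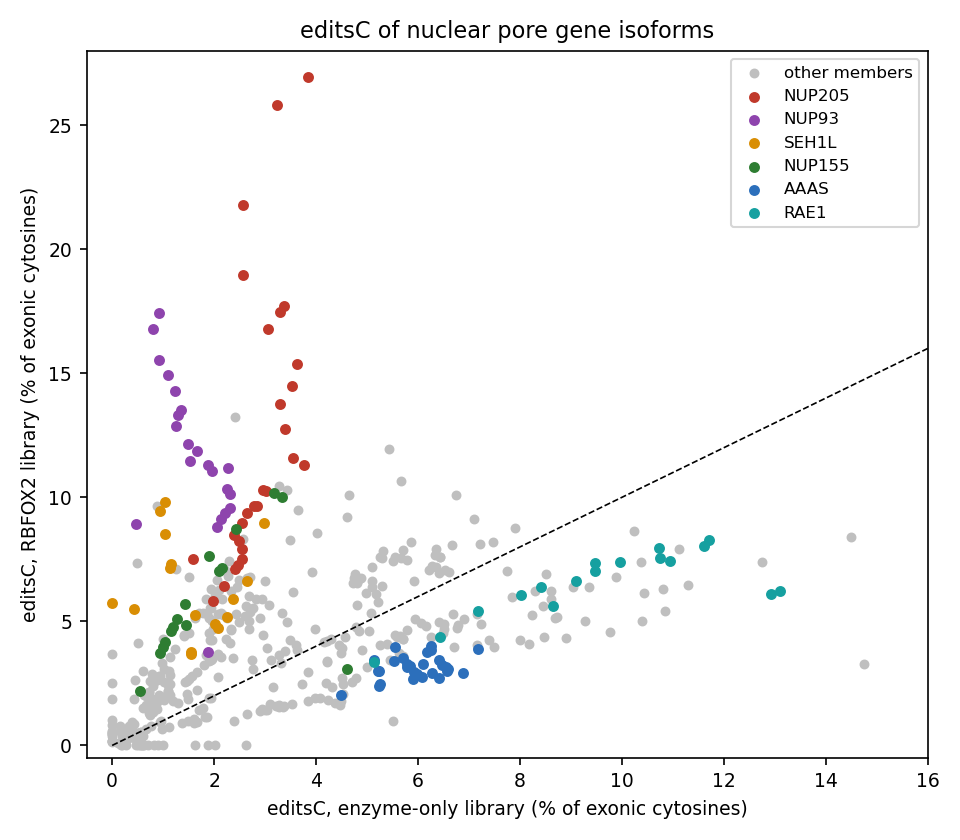
editsC (% of exonic cytosines that are unshared sites) of each nucleoporin isoform with a site, enzyme-only library on the x axis and RBFOX2 library on the y axis; 6 genes are coloured and the dashed line marks equal values. NUP205 reaches 26.9% and NUP93 17.4% in the RBFOX2 library at under 4% in the enzyme-only library, while AAAS and RAE1 lie below the line.

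Of 20 further genes of nuclear transport, 19 were listed and 9 had enough sites to be called. RANGAP1, the Ran GTPase activator, had 3 sites in 552 reads of the RBFOX2 library against 43 in 492 reads of the enzyme-only library. NXT1, the partner of the export receptor NXF1, had 3 in 518 reads against 27 in 412. For RANGAP1 and NXT1 a position needs 2 converted reads to be listed for RBFOX2 and 1 for enzyme-only, so their ratios compare unlike thresholds.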

How the data were processed

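Edit sites of 2 long-read libraries of HEK293T cells were analysed, grouped by the labels into RBFOX2 and enzyme-only, whose replicate numbers 2 and 1 pair nothing. In the study's methods, full-length PacBio reads were aligned to hg38, primary alignments were kept and C-to-U edits were called with custom scripts. The methods name another kit (Kinnex) and other isoform software than the labels and identifiers of these tables show, so the tables may come from another run. The authors deposited, per site, a count of converted reads and the gene's read count. The deposited edit fraction is their quotient, so it understates positions present in some isoforms, and every listed fraction was above 0.002. A confidence score that the authors deposited was used in no comparison. The deposited isoform models (119827) gave exon positions.

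On the listed strand of hg38 each of the 225811 positions was a cytosine. Regions and symbols came from GENCODE 44, with coding sequence before 3′UTR (bedtools 2.31.1). Shared positions were left out, as the study also removed edits seen in every sample, but annotated variants were not removed. Expected shares are site-weighted shares of exonic cytosines of the same loci. Intervals are exact Clopper-Pearson (95%, scipy 1.17.1), also for counts of 0. The calculations were tested on simulated sites. Every gene is named, and full values are given for those with at least 20 sites. Sequences shown are copies of UGCAUG with 2 or more RBFOX2 sites and sites from the 12 per library with most converted reads. Members and lists were chosen with earlier results of these data known. Alternatives were windows of 20 and 200 nt, other minimum numbers of sites, a pseudocount of 1, scaling by gene reads, sites with 2 or more reads, shared sites kept, another order of regions, 1 isoform per gene and genes left out. Some of the further nuclear transport genes are not reported here.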

Additional observations from a re-analysis of the deposited data

How the results depend on the processing

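Of 106 values recomputed under alternatives, 82 stayed on their side of the threshold or within their counting interval. Among the 60 that were ratios of single genes 55 stayed, but among the 46 for the nucleoporin genes together only 27 did. Sites with 2 or more converted reads gave an RBFOX2 share of 72.7%, ratios near UGCAUG of 3.73 (RBFOX2) and 0 (enzyme-only), 3′UTR shares of 37.5% and 38.1%, and A or U shares of 89.3% and 95.2%. A window of 200 nt gave a motif ratio of 1.17 in the RBFOX2 library. Chosen after seeing the data, leaving out NUP93, NUP205 and SEH1L gave an RBFOX2 share of 52.9%, and leaving out SEH1L and NUP205 a motif ratio of 1.16, which turned to 0.847 without NUP155 as well. With at least 50 sites required, 7 genes remained, of which 3 were called higher and 1 lower, against 11.6% and 10.7% of 1022 genes. The median log2 ratio of these 7 was 0.19, against 0.07 over the 1022 genes. Scaled by gene reads, 2 of 20 genes were called lower, against 11.7% of 3606 genes. AAAS and NUP54 fell to -0.87 and -0.96, within 2-fold. NUP43 fell to 0.98 with a pseudocount of 1, and NUP43 and NUP88 to 0.96 with a common read minimum. That minimum lowered all nucleoporin ratios alike, through the library totals used for scaling. With it 5 of 20 genes were called higher and 4 lower, against 15.8% and 12.9% of 3483 genes. Counting 3′UTR before coding sequence gave 61.6% and 61.7% in 3′UTRs, since coding exons of some transcripts are 3′UTR of others. With 1 isoform per gene median editsC was 2.04% and 1.14%, and with shared sites kept 3.15% in the enzyme-only library. The cause of the other changes was not tested. No paired analysis was possible because each group held 1 library. Most sites rest on 1 converted read, so single positions carry wide intervals.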
